A study of Mus musculus with 11 samples.

Results

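The protein part of the cytosolic ribosome was followed here in microglia of the mouse, which are the resident macrophages of brain tissue. The members were the protein-coding genes whose symbols follow the ribosomal protein pattern (Rpl or Rps with a number and at most a short suffix) or are Rplp0, Rplp1, Rplp2 or Rpsa; kinases of the Rps6k family and pseudogenes were left out. This gave 83 of the 16894 genes in the deposited table, by symbol 51 of the large subunit and 32 of the small subunit, on 19 chromosomes. The rule used symbols and no measured value. RNA was sequenced in bulk from 4 libraries of transplanted microglia, 3 of cultured primary microglia and 4 of resident microglia.

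The transplanted cells were sorted by fluorescence from brain 3 months after transplantation. The cultured cells were primary microglia kept in cell culture, and the resident cells were sorted from brain by fluorescence. All 11 libraries carry the genotype Cx3cr1-GFP, in which microglia and related macrophages make a green fluorescent protein. The treatment text names PLX3397, which blocks Csf1r, a receptor that microglia need to survive, at 600 mg/kg of chow in 3 depletion cycles before microglia were transplanted. That text stands on every library, so it does not tell if donors of resident cells had it, nor which cells were transplanted. It names no age, sex or number of animals, and nothing says that replicates came from separate animals or cultures; the p-values below therefore speak of the variation among these libraries, part or all of which may be technical.

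A ribosome has a small subunit that reads the messenger RNA and a large subunit that joins amino acids, and each holds ribosomal RNA and one copy of most ribosomal proteins. Because the proteins are needed in near-equal numbers, their genes are usually expressed together. Their transcripts are short and typically begin with a run of pyrimidines, the terminal oligopyrimidine tract, through which the kinase complex mTORC1 and the RNA-binding protein Larp1 adjust their translation and stability. Growing and dividing cells in general make more ribosomes than quiescent ones.

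The tract can be looked for in the DNA around the annotated starts of each gene. RefSeq sequence (build GRCm38.p6) matched 63 of the 83 members. A run counted if unbroken, at least 8 C or T long and with at least 1 base within 50 bases of an annotated start. For a gene with more than 1 annotated start, the longest run over its starts was taken, so genes with more starts had more chances. On the gene's strand such a run was present in 54 of the 63 (85.7%), against 41.4% of all 27025 genes with such sequence. On the other strand the shares were 23.8% of the members and 43.4% of all genes. The windows below show genes that the results turn on: the members with the largest and smallest changes, the shortest member, the only member called between transplanted and resident cells, and pairs of close relatives. Each is 30 bases long, 5′ to 3′ on the gene's strand, with the longest C and T run in capitals.
Rpl41, chr10:128549119-128549148, minus strand: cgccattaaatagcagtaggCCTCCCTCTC
Rpsa, chr9:120127702-120127731, plus strand: gagcggaagTTCTCCCTTTTTgcttagcct
Rps28, chr17:33824567-33824596, minus strand: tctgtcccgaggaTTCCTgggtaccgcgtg
Rpl38, chr11:114668568-114668597, plus strand: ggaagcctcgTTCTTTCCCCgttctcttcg
Rps6, chr4:86857349-86857378, minus strand: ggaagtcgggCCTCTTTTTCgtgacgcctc
Rpl24, chr16:55966227-55966256, plus strand: acctcaaacccaCTCCCCgccaatgctgta
Rpl7l1, chr17:46782671-46782700, minus strand: cgtcgaggcgggCCTCTCTaccccgcccgg
Rpl22, chr4:152325679-152325708, plus strand: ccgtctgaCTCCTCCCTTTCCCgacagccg
Rpl22l1, chr3:28805499-28805528, plus strand: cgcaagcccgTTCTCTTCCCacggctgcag
Rps27, chr3:90213632-90213661, minus strand: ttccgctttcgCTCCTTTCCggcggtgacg
Rps27l, chr9:66946053-66946082, plus strand: ccccgcctccaCTCCTCTCCactcctcccc
The longest run reached 14 letters in Rpl22, 12 in Rpsa and 10 in Rpl41, Rpl38, Rps6 and Rpl22l1, where that of Rpl41 ends with the sequence used. It was 9 in Rps27 and Rps27l, where Rps27l has a second run of 9 at the end of the window that is not marked. It was 7 in Rpl7l1, 6 in Rpl24 and 5 in Rps28. The annotated start need not be the start used in microglia, so a match describes letters only. The annotated starts behind the windows of Rpl38, Rpl22 and Rps27l lie inside the gene's span. A short run says only that no longer one lies in the bases searched.

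Total expected counts per library were 18692721 to 19761208 in transplanted, 26705034 to 28219696 in cultured and 19055655 to 19965631 in resident cells. The 9 microglia markers checked were detected in every group, with a summed level of 42815 to 52052 CPM (counts scaled to a common library total, with TMM scaling) in transplanted, 3953 to 6908 in cultured and 49176 to 54734 in resident libraries, and all 9 were called lower in cultured than in resident cells. Markers of cycling cells summed to 71.9 to 147.9 CPM in transplanted, 492 to 532 in cultured and 60.8 to 81.6 in resident libraries, and 10 of 10 were called higher in cultured than in resident cells. Markers of border-associated macrophages, a related population, summed to 22.1 to 49.0, 2927 to 3218 and 52.3 to 107.5 CPM in the same order. Of these 6 genes, 4 were called higher and 2 lower in cultured than in resident cells. In the same order, astrocyte markers summed to 2.59 to 4.40, 27.0 to 59.3 and 1.81 to 5.17 CPM. Monocyte or neutrophil markers summed to 1.32 to 2.21, 52.5 to 58.2 and 6.61 to 10.4 CPM. Of 3 astrocyte genes tested between cultured and resident cells, 1 was higher and 1 lower, and of 3 monocyte or neutrophil genes 2 and 1. Neuron and endothelial sums were lower in cultured than in resident libraries. Over all genes tested, 37.9% were called higher and 37.2% lower in cultured than in resident cells. The part of the marker shifts in the results below was not tested. Cultured replicate 2 stood apart from cultured replicates 1 and 3, with a chi-square per gene of 112 and 116 against them, where replicates 1 and 3 differed by 24.0. Resident replicate 1 also stood apart, at 43.3 to 47.3 against the other resident libraries, which differed by 8.16 to 8.88. Immediate early genes, which are induced within minutes of stimulation, summed to 521 to 742 CPM in transplanted and 4391 to 4849 CPM in cultured libraries, against 10420 CPM in resident replicate 1 and 402 to 545 CPM in the other resident libraries.

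The 83 genes together took 0.544 ± 0.041% of the counts in transplanted, 2.85 ± 0.94% in cultured and 0.609 ± 0.055% in resident cells (SD, n = 4, 3 and 4). By library the share was 0.492, 0.556, 0.590 and 0.537% in transplanted cells, 2.48, 3.93 and 2.16% in cultured cells and 0.583, 0.653, 0.544 and 0.657% in resident cells. Every cultured library lay above every sorted one, cultured replicate 2 was the highest of its group, and the transplanted and resident ranges overlapped. Of the authors' TPM values (scaled for transcript length and library), the members held 1.93 ± 0.16% in transplanted, 7.23 ± 1.90% in cultured and 2.11 ± 0.17% in resident cells. In bulk RNA, fewer cells that express a gene and less of its RNA per cell cannot be told apart.

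**Figure D1:**
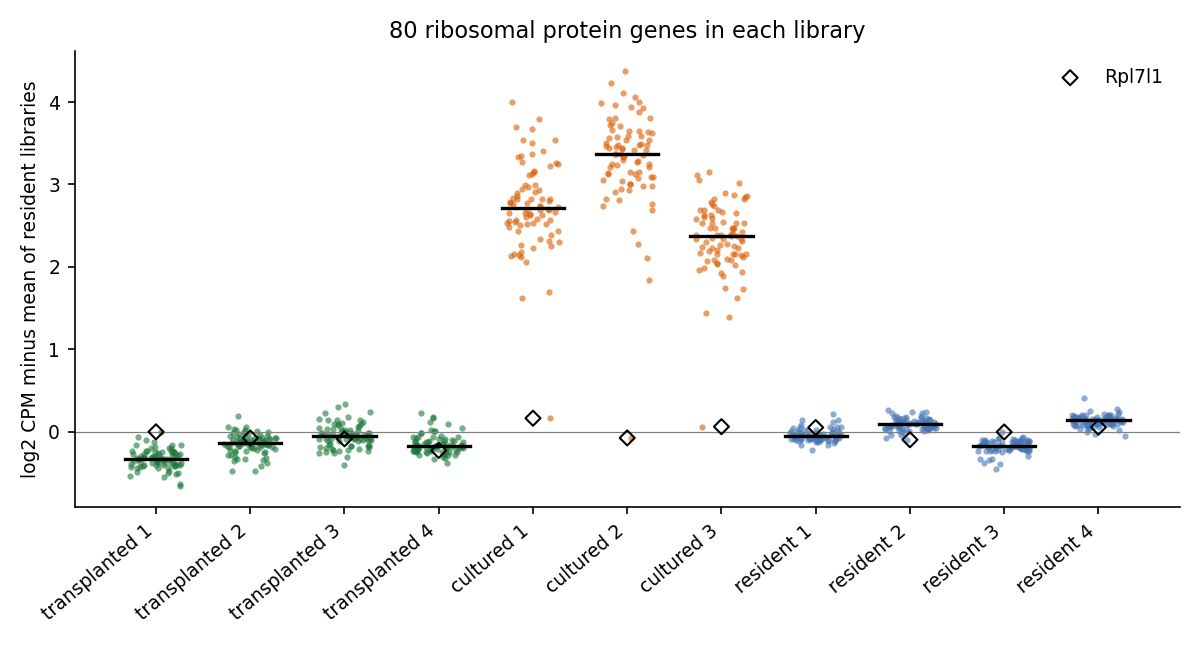
Level of the 80 members tested in every comparison, in each of the 11 libraries, as log2 CPM minus the mean of the resident libraries; each point is a gene, the black bar is the median over genes and the diamond is Rpl7l1. The cultured medians are 2.71, 3.37 and 2.37, the transplanted ones lie between -0.33 and -0.05, and Rpl7l1 stays near 0 in all libraries.

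Cultured against resident microglia. Nearly the whole set was higher in culture. Of 82 members tested with edgeR, 81 rose at an adjusted p under 0.05 and none fell, also at an unadjusted p under 0.05 or with DESeq2, and all 81 rose by at least 2-fold. Over all 12406 genes tested, 37.9% were called higher and 37.2% lower. The members had a median log2 fold change of 2.94 (7.66-fold), against -0.02 over all genes. All 32 small subunit genes rose, with a median of 2.99, as did 49 of 50 large subunit genes, with a median of 2.88. In 81 of the 82, every cultured library lay above every resident one, which held for 36.5% of all genes tested. Rpl39l and Rpl32l are among these 81 and were too low to pass the filter without the cultured libraries. Without cultured replicate 2 the median was 2.58 and without resident replicate 1 it was 2.91, and the same number, 81, was called each time.

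The largest changes were in Rpl41, Rpsa and Rps28. Rpl41, which encodes a very short peptide of the large subunit, had 688, 932 and 365 CPM in cultured cells, against 48.8, 52.8, 42.1 and 56.0 CPM in resident cells. The log2 fold change was 3.77 ± 0.29 (standard error, adjusted p = 2.69e-06). Rpsa, a small subunit protein also known as the laminin receptor, had 885, 1897 and 764 CPM in cultured cells, against 92.7, 96.4, 80.6 and 98.0 CPM in resident cells. It rose by 3.72 ± 0.30 on the log2 scale (adjusted p = 4.08e-06). In both genes the cultured libraries spread widely, with replicate 2 the highest and replicate 3 the lowest, and no cultured value came near a resident one. Rps28 had 134, 134 and 53.9 CPM in cultured cells, against 9.69, 8.97, 6.61 and 8.55 CPM in resident cells (log2 fold change 3.70 ± 0.31).

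The smallest changes were in Rpl7l1, Rps6 and Rpl21. Rpl7l1, named for its likeness to Rpl7, was the only tested member that was not called. Its level was 144, 122 and 134 CPM in cultured cells, against 133, 120, 128 and 133 CPM in resident cells, a log2 difference of 0.09 ± 0.10 with an adjusted p of 0.435. The groups overlapped. Rps6, the small subunit protein phosphorylated by the S6 kinases downstream of mTORC1, had 41.0, 47.9 and 34.9 CPM in cultured cells, against 13.2, 14.9, 12.5 and 12.8 CPM in resident cells. Its log2 fold change of 1.66 ± 0.14 (adjusted p = 4.96e-06) was the lowest among the members called. Rpl21 followed with 1.96 ± 0.22.

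Members with known roles beyond the core of the ribosome moved with the rest. The stalk proteins Rplp0, Rplp1 and Rplp2, where elongation factors dock, rose by 2.88 ± 0.12, 2.78 ± 0.26 and 2.88 ± 0.33 on the log2 scale. Rplp0 had 1838, 2089 and 1681 CPM in cultured cells, against 258, 269, 237 and 276 CPM in resident cells. Rpl5 and Rpl11, which together with the small rRNA of the large subunit bind the p53 regulator Mdm2, rose by 2.44 ± 0.19 and 2.67 ± 0.22. Rps27a, made as a fusion with ubiquitin, rose by 3.15 ± 0.22. Rps19, the gene most often mutated in human Diamond-Blackfan anaemia, rose by 3.58 ± 0.20 and had 721, 1081 and 591 CPM in cultured cells, against 65.2, 68.3, 64.0 and 75.9 CPM in resident cells. Rpl38, known in mice for its role in axial patterning, rose by 3.58 ± 0.33. Rpl13a, known in human monocytes as part of a translational silencing complex, rose by 3.11 ± 0.26. Rps3 of the mRNA entry channel, Rps25, which viral internal ribosome entry sites need, and Rpl10a, a common tag site for ribosome pulldown, rose by 2.54 ± 0.18, 2.97 ± 0.21 and 2.49 ± 0.22.

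Transcript length and the size of the rise. Cultured and resident libraries differed by length across all genes. Effective lengths, recovered from the authors' counts and FPKM values, had a median of 502 bases over the members and 2496 over all genes, and 68 of the 83 members were under 1000 bases. Among genes that are no members, the median log2 fold change of cultured over resident cells was 2.31 under 250 bases (64 genes), 1.81 at 250 to 500 (241), 0.95 at 500 to 1000 (923), 0.33 at 1000 to 2000 (2947), -0.19 at 2000 to 4000 (4838) and -0.44 above (3309). In the first 4 of these classes the members had medians of 3.34 (13 genes), 2.96 (28), 2.99 (26) and 2.42 (12), above the other genes of their class each time. The members' own folds also fell with length, with a Spearman correlation of -0.40 across 82 genes, which share the same libraries. It was -0.44 across the 79 without Rps15a, Rps20 and Rpl7l1.

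**Figure D2:**
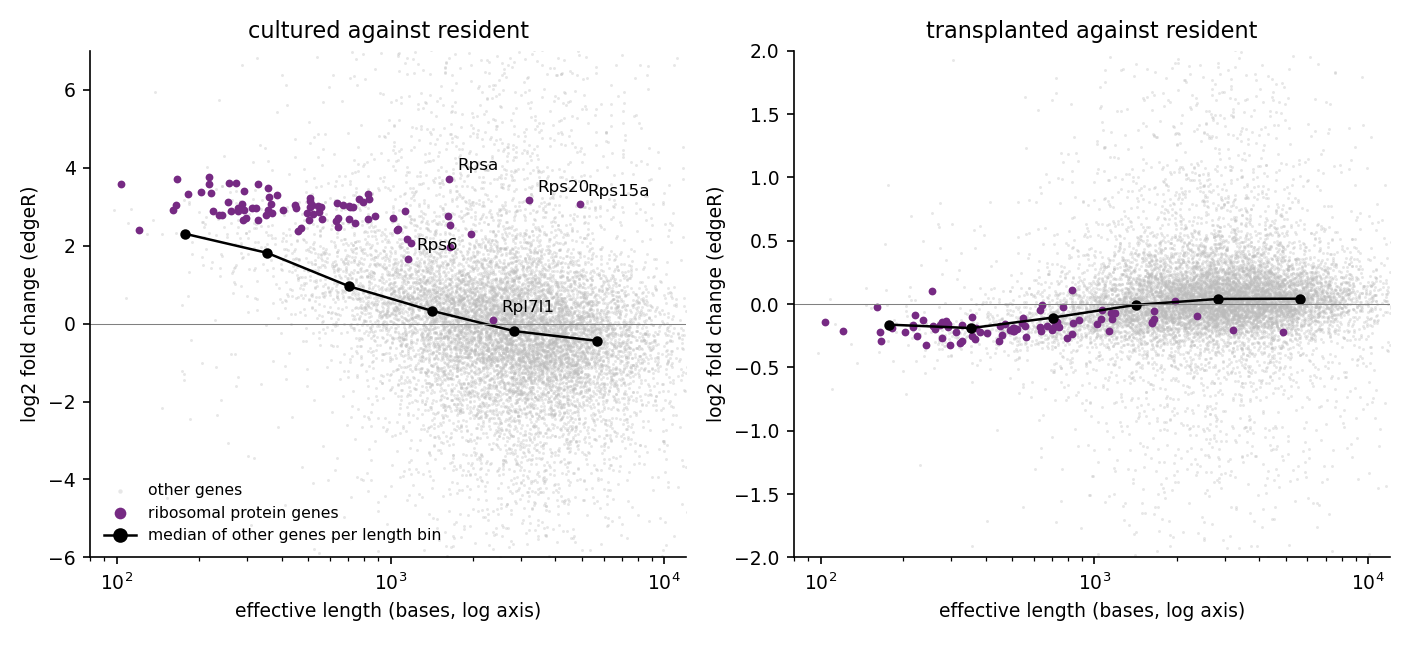
Log2 fold change from edgeR against effective length in bases (log axis) for cultured against resident (left) and transplanted against resident (right) cells; grey points are other genes, purple points are ribosomal protein genes and the black line joins the medians of the other genes per length class. On the left the line runs from 2.31 to -0.44 and most members lie above it; on the right both stay close to 0. Genes beyond the vertical range are not drawn.

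With each library's length trend removed before the test, 75 of 82 members were called higher in cultured cells and 1 lower, against 36.4% and 37.2% of all genes, and the median was 1.13, against -0.03 over all genes. On the TPM scale, tested with limma on log2(TPM + 1), 81 rose and 1 fell, against 17.4% and 68.4% of all genes. There the median was 1.70 for the members and -0.95 for all genes, a gap of 2.65. TPM did not remove the length trend between the groups. Among genes that are no members, its medians ran from 0.81 under 250 bases to -1.22 above 4000. The members' folds in TPM had a Spearman correlation of -0.34 with length. The direction of the set was the same on the 3 scales, of which only the length offset took out the trend. Its size ranged from 2.19-fold to 7.66-fold. After the removal the members' folds ran strongly with length in the other direction (Spearman correlation 0.81), so that short members had the smallest values.

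The sign of Rps27, Rpl7l1 and Rps29 depended on the scale. Rps29, of the small subunit, was at -0.10 ± 0.20 with the length trend removed, where it was not called (adjusted p = 0.667). Rps27, a zinc-finger protein of the small subunit, had 258, 304 and 138 CPM in cultured cells, against 46.5, 42.4, 38.5 and 53.5 CPM in resident cells, a log2 fold change of 2.41 ± 0.25 (adjusted p = 1.82e-05). It was -0.87 ± 0.14 with the length trend removed (adjusted p = 0.000372) and 1.15 ± 0.20 on the TPM scale. Its effective length of 120 bases is among the shortest, and the authors' value for it moved between 105.5 and 139.2 from library to library. Rpl7l1, with 2374 bases, was 0.17 ± 0.08 with the trend removed (adjusted p = 0.0833) and -1.0 ± 0.11 in TPM (limma, adjusted p = 1.74e-05), where 76.6% of all genes were below 0. The shortest member, Rpl38 with 103 bases, was 0.08 ± 0.15 with the trend removed (adjusted p = 0.649), and Rplp1 and Rplp2 were also not called there.

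The 3 highest values with the trend removed were Rpsa at 3.51 ± 0.30, Rps15a at 3.47 ± 0.27 and Rps20 at 3.45 ± 0.28. The length assigned to Rps15a was 4904 bases and that to Rps20 was 3214 bases, both long for ribosomal protein genes, whose coding parts are short. GENCODE annotation lists transcripts of Rps15a from 250 to 5179 bases. Which transcript the reads came from was not tested.

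**Figure D3:**
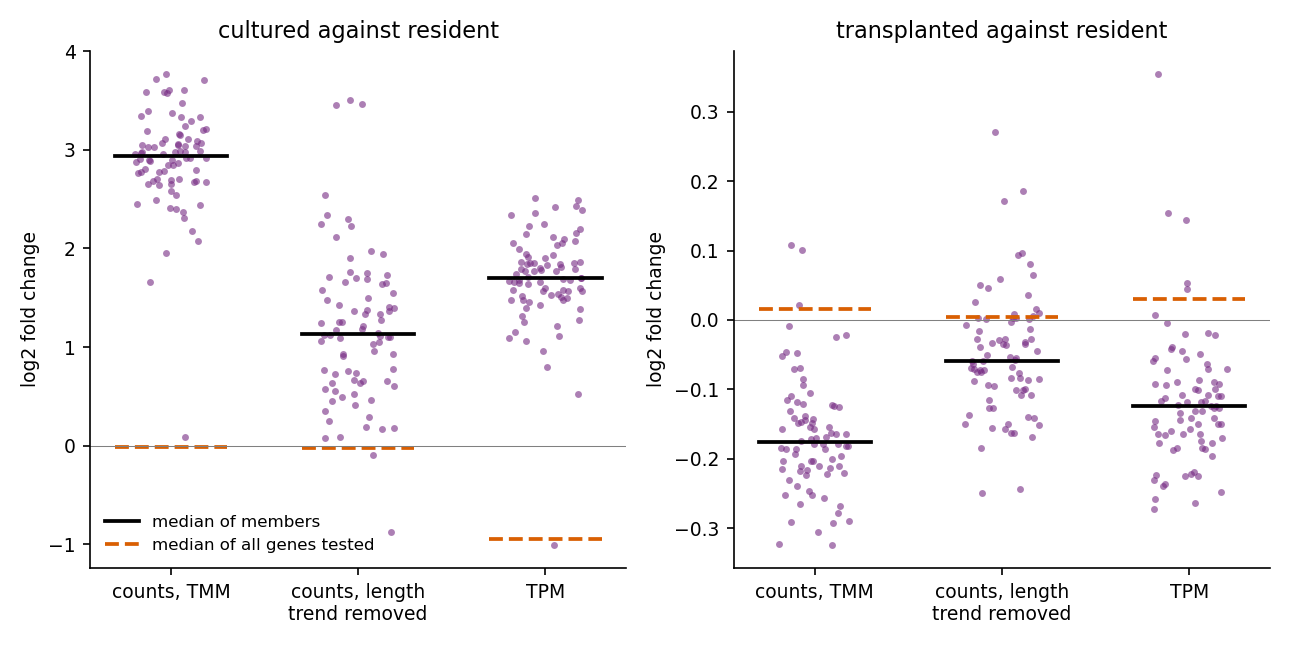
Log2 fold changes of the members for cultured against resident (left) and transplanted against resident (right) cells from counts, from counts with the length trend removed and from TPM; each point is a gene, the black bar is the median of the members and the dashed orange bar is the median of all genes tested. In culture the member medians are 2.94, 1.13 and 1.70, each above the all-gene median; in transplanted cells they are -0.18, -0.06 and -0.12. The vertical ranges differ.

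Transplanted against resident microglia. The set sat close to the resident level 3 months after transplantation. Of 80 members tested, none was called higher and 1 lower, against 7.17% and 5.86% of all 11929 genes. At an unadjusted p under 0.05 there were 20 members (25%), against 27.6% of all genes. The members' median log2 fold change was -0.18, with 77 of 80 below 0, against 0.02 over all genes. Other short genes were also below 0 at the median. Their medians were -0.16 under 250 bases, -0.19 at 250 to 500, -0.11 at 500 to 1000 and -0.01 at 1000 to 2000. The members' values ran from -0.32 to 0.11. In 6 of the 80 (7.5%) every transplanted library lay below every resident one, which held for 9.49% of all genes. Without resident replicate 1 the median was -0.21, with 1 called lower and none higher. Of the marker lists, 5 of 6 border-associated macrophage genes, 2 of 9 microglia genes and the 1 tested gene of monocytes or neutrophils were called lower in transplanted cells, and 1 of 10 cycling genes was called higher. Of 2 endothelial genes tested, 1 was called higher and 1 lower, with sums of 10.4 to 14.8 CPM in transplanted and 36.8 to 55.1 CPM in resident libraries. No immediate early gene was called by edgeR, with a median of -2.98 and 7 of 9 at an unadjusted p under 0.05. That median leans on resident replicate 1, where they summed to 10420 CPM. The other resident libraries had 402 to 545 CPM and the transplanted ones 521 to 742 CPM. With limma on TPM, 0 of 8 were at an unadjusted p under 0.05. The part of these lists in the members' values was not tested.

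Rpl24, a late-joining protein of the large subunit, was the member called, and it is named because it was the one call, after its values were seen. It had 26.3, 28.2, 24.7 and 27.8 CPM in transplanted cells, against 31.7, 33.3, 30.4 and 36.1 CPM in resident cells. It fell by 0.29 ± 0.08 on the log2 scale (adjusted p = 0.0365), and the groups did not overlap. The adjusted p was 0.204 with the length trend removed and 0.403 in a fit of all 11 libraries, and it was above 0.05 without any of transplanted replicates 1, 3 or 4 or resident replicates 2 or 4.

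Low values were those of Rpl30 at -0.32 ± 0.11 (adjusted p = 0.0931) and Rps23 at -0.31 ± 0.09 (adjusted p = 0.0565). The highest were Rpl23 at 0.11 ± 0.15, Rpl22l1 at 0.10 ± 0.12 and Rpl22 at 0.02 ± 0.13. None of these 5 passed the test. Rps23, of the decoding centre, had 45.9, 56.9, 58.6 and 56.9 CPM in transplanted cells, against 66.7, 71.3, 59.5 and 73.1 CPM in resident cells. Rplp0 had 197, 236, 250 and 214 CPM in transplanted cells, against 258, 269, 237 and 276 CPM in resident cells, a log2 difference of -0.21 ± 0.09 with an adjusted p of 0.145. The ranges of Rplp0 overlapped and those of Rps23 did not.

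By library, the members' median deviation from the resident mean was -0.33, -0.14, -0.05 and -0.18 in transplanted cells and -0.05, 0.09, -0.17 and 0.14 in resident cells, on the log2 scale. Transplanted replicates 1 and 4 lay below the resident range, replicate 1 the further, and replicates 2 and 3 lay within it. Other genes of like length had like medians: at 250 to 500 bases the median was -0.19 for 27 members and -0.19 for 217 other genes, and under 250 bases it was -0.18 for 13 members and -0.16 for 55 others. At 500 to 1000 and 1000 to 2000 bases the members were at -0.18 and -0.12, against -0.11 and -0.01 for the others. With the length trend removed the median was -0.06 with 59 of 80 below 0, and no member was called (3 at an unadjusted p under 0.05), against 6.58% of all genes higher and 5.42% lower. In TPM 1 of 82 members was called lower and none higher, against 5.56% and 6.92% of all genes, and the median was -0.12.

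**Figure D4:**
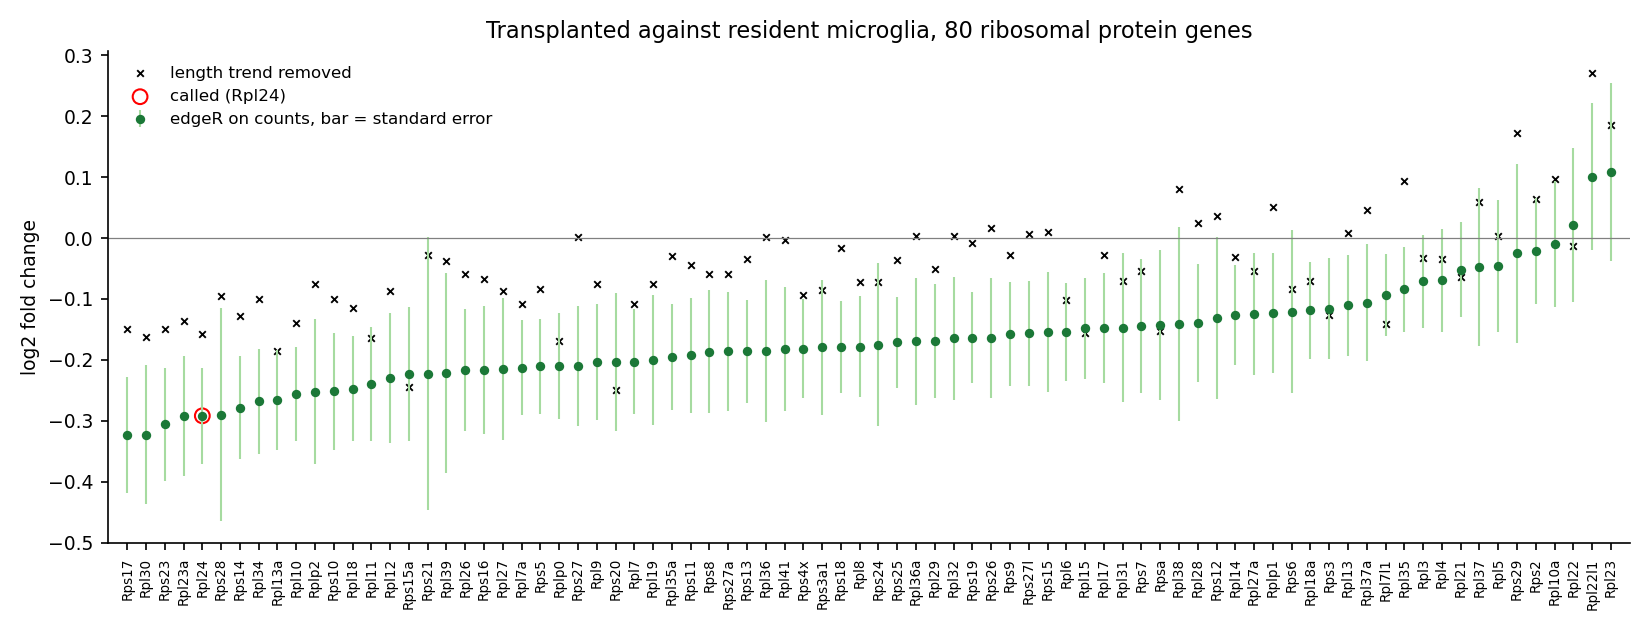
Log2 fold change of transplanted over resident cells for the 80 members tested, in ascending order; green points with bars are edgeR estimates with standard errors, crosses are the values with the length trend removed and the red ring marks Rpl24. The points lie between -0.32 and 0.11, and most crosses sit nearer to 0 than their points.

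Transplanted against cultured microglia. Of 82 members tested, 81 were called lower in transplanted cells and none higher, against 35.5% and 36.9% of all 12284 genes. Rpl39l and Rpl32l are among these 81 and were too low to pass the filter without the cultured libraries. Their median log2 fold change was -3.11, against 0.05 over all genes. Rps28 had 5.37, 6.0, 8.52 and 7.69 CPM in transplanted cells, against 134, 134 and 53.9 CPM in cultured cells, and fell by 3.98 ± 0.32 on the log2 scale. Rpl41 fell by 3.93 ± 0.28 and Rpsa fell by 3.85 ± 0.32. Rpl7l1 again was not called, with 128, 122, 121 and 110 CPM in transplanted cells, against 144, 122 and 134 CPM in cultured cells and a log2 difference of -0.16 ± 0.11 (adjusted p = 0.219). Rps6 and Rpl21 changed least among those called, at -1.76 ± 0.19 and -1.99 ± 0.22. With the length trend removed 74 were lower and 1, Rps27, higher, against 35.4% and 35.7% of all genes, with a median of -1.19. In TPM 81 were lower and 1, Rpl7l1, higher, against 16.2% and 68.1% of all genes, with a median of -1.86. The libraries of this comparison are also those of the comparisons above, so its values are not separate evidence.

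Levels among the members. Per length, in TPM, the highest members in transplanted cells were Rplp1 at 730 ± 91, Rps27 at 724 ± 79 and Rps9 at 686 ± 41, whose SDs overlap. In cultured cells they were Rpl41 at 2869 ± 1011, Rps19 at 2360 ± 566 and Rpl13 at 2318 ± 589, which also overlap. In resident cells Rps27 stood at 785 ± 107, Rplp1 at 761 ± 70 and Rpl10 at 754 ± 50. Across the 83 members the Pearson correlation of mean log2(TPM + 1) was 0.999 between transplanted and resident cells. It was 0.964 between transplanted and cultured cells and 0.966 between cultured and resident cells. In the same order the Spearman correlations, which compare ranks, were 0.995, 0.940 and 0.944. The members share length and annotation in all 3 groups, and these values describe their relative levels only.

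The lowest members were Rpl3l, Rpl39l and Rpl32l. Rpl3l, a muscle relative of Rpl3, had 3.02 counts in all transplanted, 22 in all cultured and 6.08 in all resident libraries and did not pass the filter of the edgeR test in any comparison. Rpl39l, known from the male germ line, had 22, 78 and 13 counts in the same order, and Rpl32l had 23, 163 and 24. Neither passed that filter between transplanted and resident cells; in TPM their log2 differences there were 0.35 ± 0.28 (Rpl39l, limma adjusted p = 0.469) and -0.02 ± 0.33 (Rpl32l, limma adjusted p = 0.976). Rpl39l was called higher in cultured than in resident cells, by 3.05 ± 0.56 (adjusted p = 0.000859). Both genes passed the filter only where cultured libraries, which had their highest counts, were compared. Their calls there are therefore no separate support. Its reads may be shared with Rpl39, and counts of ribosomal protein genes in general may be split with their many pseudogenes, so single values are uncertain to that extent.

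Paralogs against their core genes. Some members are named for their likeness to another member, here called the core gene. The name does not tell if the protein of such a paralog takes the place of the core protein in the ribosome. The ratio of paralog to core gene within a library does not depend on library scaling. Per length, Rpl7l1 stood at 46.6, 37.1, 40.5 and 35.6% of Rpl7 in transplanted cells, 7.88, 3.96 and 8.0% in cultured cells and 38.9, 33.7, 42.0 and 33.8% in resident cells. Every cultured library lay below all sorted ones, and transplanted and resident cells overlapped. The log2 ratio of cultured cells was 2.55 below that of resident cells (exact two-sided permutation test, p = 0.0571, adjusted p = 0.129), and that of transplanted cells was 2.66 above that of cultured cells with the same p. With 3 against 4 libraries 0.0571 is the smallest p the test can give, so it cannot reach 0.05. With the length trend removed the differences were -1.20 and 1.18.

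Rpl22l1, which opposes its relative Rpl22 in zebrafish blood development, stood at 388, 457, 311 and 395% of Rpl22 in transplanted cells, 614, 618 and 680% in cultured cells and 400, 383, 359 and 309% in resident cells. The cultured values were above all others. The log2 difference of cultured from resident cells was 0.82 (exact permutation p = 0.0571), and -1.54 with the length trend removed. The assigned lengths were 255 bases for Rpl22l1 and 1968 for Rpl22. Rps27l, a p53 target, stood at 19.9, 17.7, 20.7 and 16.5% of Rps27 in transplanted cells, 17.9, 22.6 and 24.7% in cultured cells and 17.0, 18.5, 19.9 and 17.0% in resident cells, with all 3 groups overlapping. With the length trend removed the log2 ratio was 1.13 higher in cultured than in resident cells and 1.10 lower in transplanted than in cultured cells, and cultured libraries lay apart from both other groups (exact permutation p = 0.0571 each). Between transplanted and resident cells none of the 3 ratios differed beyond the spread, with exact permutation p-values of 0.371, 0.543 and 0.657 for Rpl7l1, Rpl22l1 and Rps27l. The 3 pairs and 3 comparisons made 9 tests.

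**Figure D5:**
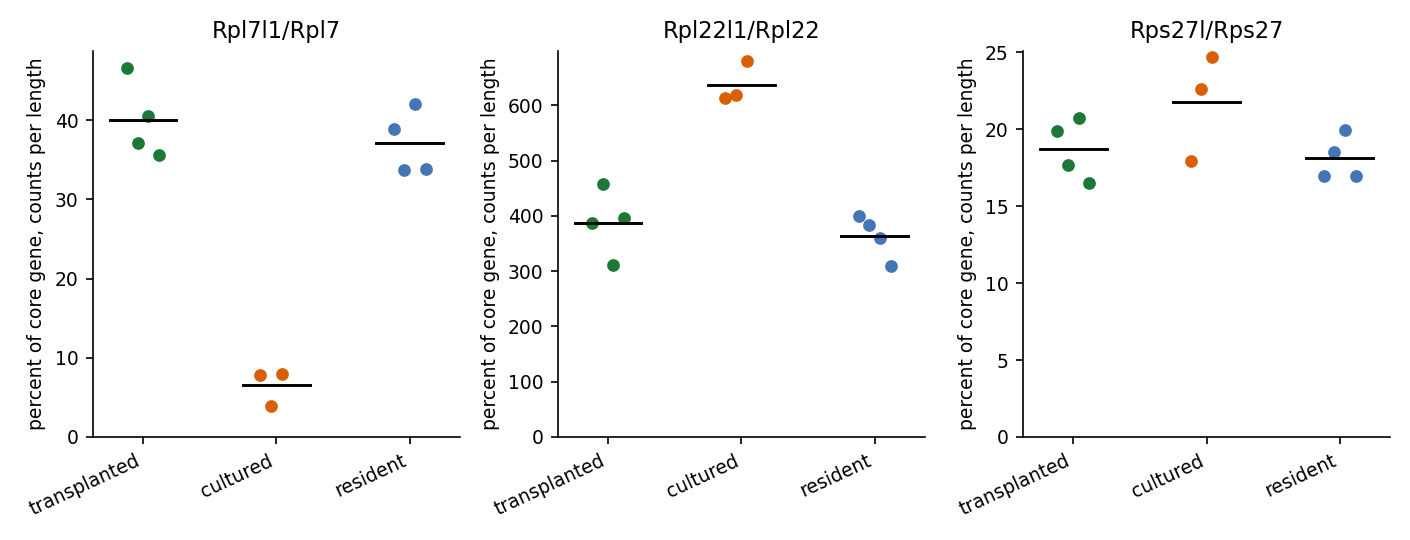
Counts per length of a paralog as a percent of its core gene, by library, for transplanted, cultured and resident cells; points are libraries and bars are group means. Rpl7l1 relative to Rpl7 is at 3.96 to 8.0% in culture and at 33.7 to 46.6% in sorted cells.

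Genes around the ribosome. Fau, Rack1 and Rpl36al also encode ribosome parts, but their symbols fall outside the rule. All 3 were called higher in cultured than in resident cells from counts and in TPM, while with the length trend removed Rpl36al was lower, at -0.36 ± 0.09 (adjusted p = 0.00411). Fau and Rpl36al were called lower in transplanted than in resident cells, at -0.33 ± 0.09 (adjusted p = 0.0420) and -0.30 ± 0.08 (adjusted p = 0.0288), and both lost the call with the length trend removed (adjusted p = 0.217 and 0.237). Fau had 111, 128, 129 and 135 CPM in transplanted cells, against 154, 168, 136 and 179 CPM in resident cells.

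Elongation factors and other transcripts known to start with an oligopyrimidine tract moved like the members in culture. Of 17 listed, 16 were in the table, and 16 of 16 were higher in cultured than in resident cells, with a median of 2.37 from counts, where 37.9% of all genes were. With the length trend removed 15 were, with a median of 2.12, against 36.4% of all genes. Eef1a1, the factor that delivers tRNA to the ribosome, had 8283, 9345 and 7478 CPM in cultured cells, against 1349, 1485, 1254 and 1498 CPM in resident cells, and rose by 2.62 ± 0.12. Tpt1, a small growth-related protein, rose by 3.55 ± 0.28. None of the 16 was called by edgeR between transplanted and resident cells, with a median of -0.05 and 3 at an unadjusted p under 0.05. Of all genes, 7.17% were called higher and 5.86% lower there.

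Lists from other steps moved less evenly. Of 26 initiation factors, 21 rose and 1, Eif4a2, fell in cultured against resident cells, with a median of 1.13, against 37.9% of all genes higher and 37.2% lower. On the TPM scale 8 rose and 8 fell, against 17.4% and 68.4% of all genes. Of 35 ribosome biogenesis genes, 13 rose and 9 fell, with a median of 0.08, and in TPM 2 rose and 30 fell, with a median of -0.99. Nhp2 of the small nucleolar ribonucleoproteins rose by 1.95 ± 0.13 and the nucleolar protein Ncl by 1.53 ± 0.11, while the rRNA methyltransferase gene Nop2 fell by 1.49 ± 0.22 on the log2 scale. Of 20 genes of mTORC1 and its translation branch, 9 rose and 6 fell, with a median of -0.18, and in TPM 3 rose and 11 fell, with a median of -0.95. Over all genes the median was -0.02 from counts and -0.95 in TPM. Eif4ebp1, which holds back cap-dependent initiation, rose by 3.38 ± 0.10, and Rptor, the subunit that recruits mTORC1 substrates, had 19.4, 19.4 and 18.5 CPM in cultured cells, against 263, 271, 278 and 252 CPM in resident cells, a log2 fold change of -3.76 ± 0.11. In transplanted against resident cells none of the genes of these 3 lists was called by edgeR, against 7.17% of all genes higher and 5.86% lower. The medians were -0.04, 0.12 and -0.05. At an unadjusted p under 0.05 there were 5, 4 and 1, for which the share over all genes is given above with the members.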

How the data were processed

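Per the file headers, the deposited table gives expected counts, TPM and FPKM for 16894 genes in 11 libraries. The tools HISAT and Bowtie2 and the build GRCm38.p6 are named per the submitters' processing notes; counter, annotation and strand setting are not given there. The authors estimated the expected counts, which are unscaled, and made the TPM and FPKM values by scaling for length and library. Per the labels' protocols, 1 ng of TRIzol-extracted RNA went into Smart-Seq libraries. Symbols came from RefSeq (GRCm38.p6), which matched 16845 identifiers (99.7%).

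Expected counts were rounded. edgeR 4.0.16 (R 4.3.3) was run on the libraries of 2 groups at a time, after TMM scaling and filterByExpr, with its quasi-likelihood test. Calls needed p under 0.05 after Benjamini-Hochberg adjustment over every gene tested. Adjusted p-values of genes come from this test unless limma 3.58.1 on TPM is named (TPM of at least 1 in 3 libraries). Effective length is count divided by FPKM, scaled by library total. The length trend is a loess curve (span 0.5) of each library's deviation in log2 CPM, used as an offset. Levels are CPM with TMM over all libraries. Intervals and errors do not cover amplification, since no molecular identifiers were used. In simulated data for cultured and resident cells, edgeR recovered 93.0% of 100 genes changed by 1 on the log2 scale, among 12329 genes. The simulation had 1 fixed spread, no outlying library and no length trend, and the changed genes had ample counts. It therefore does not measure the power in the real libraries.

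Genes named with values were the 3 highest and 3 lowest per comparison, members fixed by role, paralog pairs, the shortest and longest, and members whose call reversed with length. Some genes these rules or the lists name are not reported here. Members and lists were chosen with earlier results of these data known. Alternatives were DESeq2 1.42.0, other scalings, filters, a pseudocount of 0.1, length offsets, a replicate block and leaving out each library. No pairing of libraries by replicate number was seen, which does not exclude one.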

Additional observations from a re-analysis of the deposited data

Results flagged for a closer look

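Rps23 had 45.9 CPM in transplanted replicate 1, set apart from the other transplanted libraries at 56.9 to 58.6 CPM, with a gap of 0.863 of the group's range. Rps27l had 21.8 CPM in resident replicate 4, set apart from the other resident libraries at 18.4 to 18.97 CPM, with a gap of 0.841 of the range. These are 2 of 72 groups of 4 libraries looked at, and chance sets about 1 in 20 such groups apart.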

How the results depend on the processing

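In cultured against resident cells, 72 to 82 members were called higher under all alternatives. The median was 1.13 with the length offset, 1.22 with that offset fitted without the members (chosen after the data were seen), 1.15 with the replicate block and length offset, and 1.70, 1.76 and 1.70 in TPM with pseudocounts of 1 and 0.1 and without a filter. Each of these 6 settings called 1 member lower. Rps27 was at -0.87, -0.72 and -0.78 in the 3 offset settings, and Rpl7l1 at -1.0, -1.01 and -1.0 in TPM. Leaving out a library gave medians of 2.58 to 3.12. In transplanted against cultured cells, 71 to 82 were lower, and in the same order the medians were -1.19, -1.26, -1.19, -1.86, -1.88 and -1.86, with 1 member higher each time (Rps27 at 0.81, 0.64 and 0.82, Rpl7l1 at 0.93, 0.94 and 0.93). In transplanted against resident cells, 9 were lower with DESeq2, 3 without the filter, 6 with TMM set without the members, 0 in the fit of all libraries and 0 with each length offset; leaving out a library gave 0 to 8 (3 without transplanted replicate 2, 4 without replicate 3, 8 without resident replicate 3, and 0 without transplanted replicates 1 or 4 or resident replicates 2 or 4). None was higher there under any alternative, and the median stayed between -0.25 and -0.06. For most alternatives the shares of all genes called are not reported here, so the counts above describe change between settings only. The cause of these changes was not tested. As a share of summed TPM, the members held 1.93% in transplanted, 7.23% in cultured and 2.11% in resident cells. With the length trend removed (chosen after the data were seen), the log2 ratio of Rpl7l1 to Rpl7 was -0.024 in transplanted against resident cells, and that of Rpl22l1 to Rpl22 was -1.54 in cultured against resident and 1.79 in transplanted against cultured cells. Same-numbered libraries correlated between -0.07 and 0.05, and differently numbered ones between -0.06 and 0.10. No pairing by number was seen, but these values cannot exclude one. With the replicate block 81 members were higher in cultured than resident, 1 lower in transplanted than resident and 80 lower in transplanted than cultured cells. Of the alternatives for single named genes, 1479 kept direction and call, 16 gained a call, 33 lost it and 12 changed sign. At these depths, members with under 100 counts per group (Rpl3l and Rpl39l) are the least certain.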
